A study of Mus musculus with 6 samples.

Results

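Terminal differentiation turns a lens epithelial cell into a fibre cell, which elongates, fills with crystallin protein and then loses its nucleus and organelles. The fibre cell maturation genes described here belong to that late programme. The set holds 9 genes: Lim2, Grifin, Lgsn, Lctl, Birc7, Hsf4, Dnase2b, Tdrd7 and Caprin2. Members were all probes whose symbol in the platform's annotation is one of these names. That gave 8 of the 25697 probes on the array, for 6 of the 9 genes: 3 probes for Dnase2b and 1 each for Lim2, Lgsn, Lctl, Hsf4 and Tdrd7. No probe listed in that annotation carries the name of Grifin, a lens galectin-related protein, of Birc7, an inhibitor of apoptosis, or of Caprin2, an RNA-binding protein, so these 3 genes were not analysed here.

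The lens RNA came from 6 mice of 18 weeks on the C57BL/6J strain, 1 mouse per Illumina BeadChip array. In 3 mice both Fgf9 alleles carried Y162C, an amino acid substitution in a secreted fibroblast growth factor that the submitters' title calls neomorphic, and the other 3 were wild type. The wild-type mice were labelled 1 female and 2 males, and the homozygotes 2 females and 1 male. Fgf9 expression does not check the genotype labels, since its probe stayed at background on all 6 arrays and would not read a substitution.

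Fibroblast growth factor signalling is known in rodents to start fibre differentiation, and Hsf4, a heat shock transcription factor, acts later in the programme. Lim2 is a membrane protein of fibre cells, Lgsn (lengsin) is a member of the glutamine synthetase family found in the lens, and Lctl is a klotho-related membrane protein needed for an intact lens suture in the mouse. Dnase2b is the acid nuclease that degrades the DNA of fibre nuclei. Tdrd7 is a Tudor-domain protein of RNA granules whose loss gives cataract in mouse and human.

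None of the 6 measured genes passed the test between genotypes: 0 of 6 had a limma adjusted p under 0.05, against 0.435% of the 6430 genes tested. At an unadjusted p under 0.05 the count was 1, Dnase2b, against 9.14% of all tested genes. The brightest Dnase2b probe had the widest difference of the 6 genes, 1.45-fold higher in homozygous lenses and short of the threshold, and the groups did not overlap in that gene alone, 1 of 6 against 15.1% of tested genes. The other 5 genes had log2 differences between -0.09 and 0.16. Of the 6 genes, 4 lay above 0 and 2 below, with a median log2 difference of 0.09, where the median over all tested genes was -7.3e-05. All 8 probes passed the detection filter, with the 6 representing probes above background on all 6 arrays.

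Some features of the arrays bear on these values. Mean signal was 191 to 200.4 on the wild-type arrays and 161.6 to 165.7 on the homozygous arrays, and 8713 to 9671 against 7816 to 8396 probes were above background. The sex label of wild type replicate 3 is male, whereas that array detected Xist, a transcript of female cells, and did not detect Eif2s3y of the Y chromosome. Photoreceptor markers, of which 16 of 20 were tested, summed to 14623 normalized signal units on wild type replicate 2, while wild type replicates 1 and 3 had 2627 and 3448 and the homozygotes 2533 to 5094. The tissue label was checked on 10 lens genes, of which 7 were tested and above background on every array, among them Mip, Bfsp1 and Bfsp2 of fibre cells. Of the 7, 0 passed, and those of smallest p were Cryab and Cryaa, the alpha crystallins, with log2 differences of 0.37 and 0.29. The summed signal of the 7 was 113112 to 116641 in the wild type and 115229 to 122260 in the homozygotes. Quantile normalization sets the brightest values by rank, and Mip had the same normalized log2 value, 14.87, on all 3 homozygous arrays. These sums therefore do not test whether the amount of lens RNA differed. Pax6 and Foxe3, which mark the lens lineage and its epithelium, were not above background on enough arrays to be tested. In whole lenses, a change in the number of cells of a type and a change in RNA per cell cannot be told apart.

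**Figure D1:**
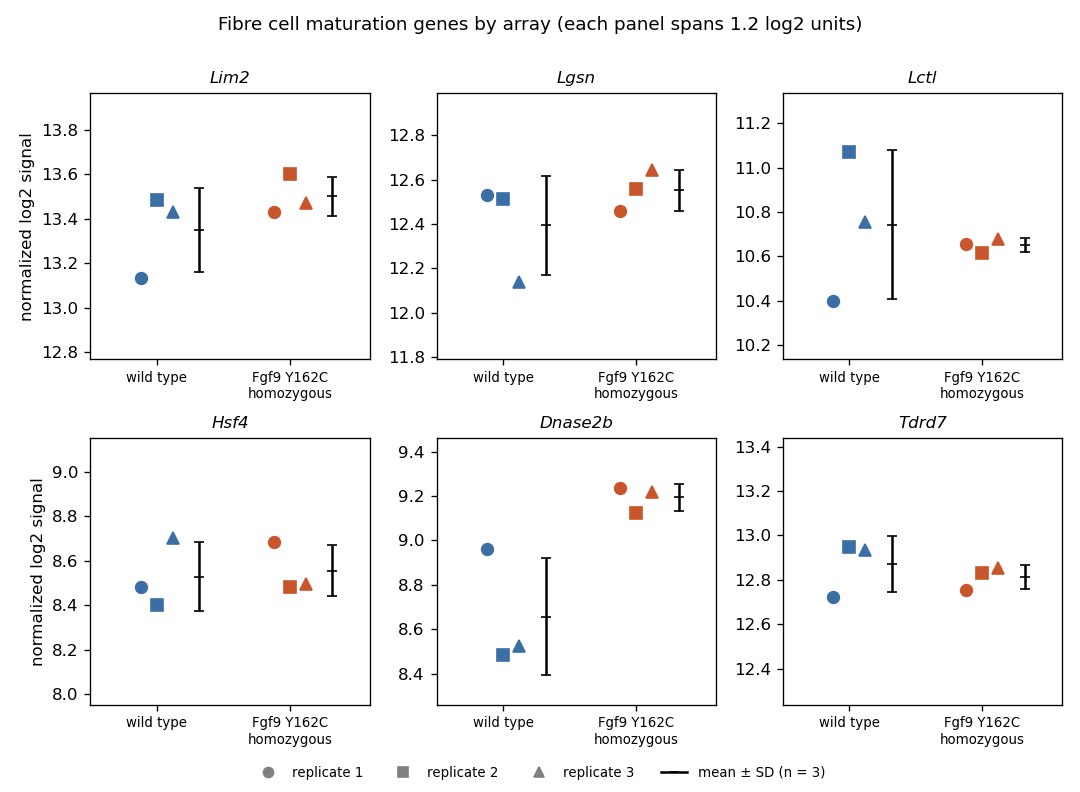
Normalized log2 signal of the 6 measured fibre cell maturation genes on the 3 wild-type and the 3 homozygous arrays, with 1 symbol per mouse and the mean ± SD beside each group. All panels span the same height in log2 units, and the groups stand apart in 1 panel, Dnase2b, where the homozygous arrays lie at 9.12 to 9.24 and the wild-type arrays at 8.48 to 8.96.

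In Hsf4, the transcription factor, the genotypes overlapped. Its normalized log2 signal was 8.48, 8.40 and 8.70 on wild-type arrays 1 to 3 and 8.69, 8.48 and 8.49 on homozygous arrays 1 to 3. The 2 groups covered nearly the same range, with wild type replicate 3 highest and wild type replicate 2 lowest. The log2 difference, homozygous minus wild type, was 0.03 with a 95% interval of -0.27 to 0.32 (limma adjusted p = 0.973, n = 3 per group). On a linear scale that interval runs from 0.83-fold to 1.25-fold. The sign of so small a difference was not stable: it was below 0 without wild type replicate 2, without homozygous replicate 1, with array weights and with median scaling. On the deposited signal without correction or normalization it was -0.40 and passed (limma adjusted p = 0.032), as did 1925 of all 6430 tested genes.

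Lim2, the fibre membrane protein, had normalized log2 signals of 13.13, 13.48 and 13.43 on wild-type arrays 1 to 3. The homozygous arrays stood at 13.43, 13.60 and 13.47. Wild type replicate 1 was lowest and the groups overlapped among the other arrays. Wild-type lenses averaged 13.35 ± 0.19 (SD, n = 3) and homozygous lenses 13.50 ± 0.09 (SD, n = 3). This gave a log2 difference of 0.15 with a 95% interval of -0.08 to 0.39 (limma adjusted p = 0.700), and of 0.05 without wild type replicate 1. In the authors' processed intensity the Lim2 groups did not overlap: the wild-type arrays stood at 8725, 10602 and 11235 and the homozygous arrays at 11446, 13904 and 11799. Such separation upward was seen in 7.81% of all tested genes in that table, and the Lim2 difference there did not pass either.

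Lgsn, the lengsin gene, had normalized log2 signals of 12.53, 12.51 and 12.14 in the wild type. Its homozygous values were 12.46, 12.56 and 12.64. The groups overlapped, and wild type replicate 3 was the lowest of the 6 arrays. The log2 difference was 0.16 with a 95% interval of -0.10 to 0.41 (limma adjusted p = 0.714), and 0.04 without wild type replicate 3. The probes of Lim2, Lgsn and Tdrd7 were among the 100 brightest on these arrays, where quantile normalization sets values by rank over few probes and small differences can be missed.

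Lctl, the klotho-related protein, varied more among wild-type mice than between genotypes. Its normalized log2 signal was 10.40, 11.07 and 10.76 in the wild type. The homozygous values, 10.66, 10.62 and 10.68, all fell inside that span. The SD was 0.34 in the wild type and 0.03 in the homozygotes (n = 3 each). The log2 difference was -0.09 with a 95% interval of -0.42 to 0.23 (limma adjusted p = 0.887). Lctl was highest on wild type replicate 2, the array on which the photoreceptor markers were also highest. Tdrd7 was highest there too, and a link to those markers was not tested. Without wild type replicate 2 the Lctl log2 difference was 0.07 (limma adjusted p = 0.958), and a fit that includes labelled sex gave 0.0012.

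A larger spread among the wild-type arrays was common to the members. The wild-type SD exceeded the homozygous SD in 6 of 6 genes, and in 57.3% of all tested genes. Over the 6 genes the pooled within-group SD lay between 0.10 for Tdrd7 and 0.24 for Lctl. It was below the median of all tested probes, 0.21, in every gene except Lctl. Wild type replicate 1 was the lowest array for Lim2, Lctl and Tdrd7 and, for Dnase2b, the wild-type array nearest to the homozygotes.

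Dnase2b, the nuclease of fibre cell nuclei, came closest to a difference. Its brightest probe had normalized log2 signals of 8.96, 8.48 and 8.52 in the wild type. In the homozygotes the values were 9.24, 9.12 and 9.22. All homozygous arrays lay above all wild-type arrays, a separation in that direction seen in 7.42% of tested genes, with wild type replicate 1 nearest to them. Wild-type lenses averaged 8.66 ± 0.26 (SD, n = 3) and homozygous lenses 9.19 ± 0.06 (SD, n = 3). The log2 difference was 0.54 (SE 0.15) with a 95% interval of 0.22 to 0.85, which is 1.16-fold to 1.81-fold. It did not pass over all probes (limma adjusted p = 0.237), where a log2 difference of 0.78 would have been needed at this probe's SE. Its absolute size was above that of 95.4% of tested genes.

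The Dnase2b call depended on 1 mouse: without wild type replicate 1 the log2 difference was 0.69 and passed (limma adjusted p = 0.021). Without each of the other 5 arrays in turn it was 0.45 to 0.58 and did not pass, with adjusted p-values of 0.41 to 0.63. Wild type replicate 3, whose sex genes go against its label, was one of those arrays, and without it the log2 difference was 0.47. With sex as labelled as a covariate it was also 0.47 (limma adjusted p = 0.464).

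The other Dnase2b probes did not show the same direction. The first dim probe had deposited signals of 107.1, 119.3 and 107.6 in the wild type and 90.1, 102.4 and 92.5 in the homozygotes, and was above background on 3 wild-type and 2 homozygous arrays. The second had 107.2, 117.0 and 85.1 against 87.1, 97.1 and 88.3, above background on 2 and 1. The brightest probe had deposited signals of 638.3, 514.4 and 482.1 against 547.5, 551.0 and 568.3. On that scale the groups overlapped for the brightest probe, and all its homozygous signals were within the wild-type range. The log2 differences of the dim probes were -0.27 (95% interval -0.73 to 0.19) and -0.20 (95% interval -0.73 to 0.34), with limma adjusted p-values of 0.723 and 0.843. All 3 probes are annotated to the same RefSeq transcript, and which part of it each one reads was not analysed here.

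**Figure D2:**
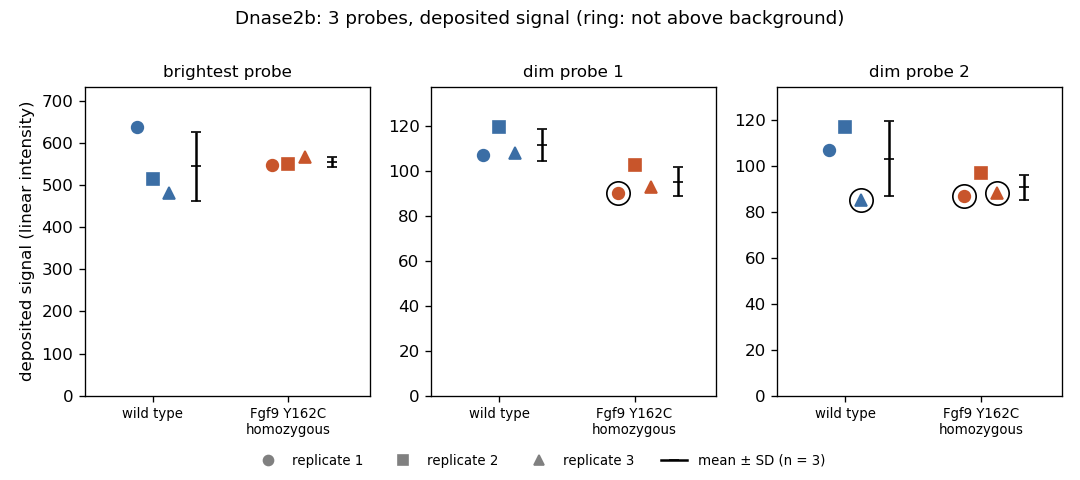
Deposited signal, a linear intensity before background correction and normalization, of the 3 Dnase2b probes on each array, with the mean ± SD of each group; each panel has its own axis from 0. Rings mark arrays on which the probe was not above background: 0 for the brightest probe, 1 for the first dim probe and 3 for the second.

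In some lists of markers of other cells, genes passed the test between genotypes, unlike the members. The 8 tested of 10 lens epithelium markers summed to 10761 to 11693 normalized units in the wild type and 15167 to 17234 in the homozygotes, with Aqp1, the water channel, higher by 1.30 on the log2 scale (limma adjusted p = 0.00343). The 5 tested of 13 inner retina and glia markers summed to 292.7 to 535.5 in the wild type and 45.2 to 70.4 in the homozygotes. Of these Calb2, Slc1a3, Sncg and Slc17a6 passed, all lower, and Slc17a6 was above background on 0 homozygous arrays. Each of the 5 was above background on 3 wild-type arrays and on at most 1 homozygous array. For 8 of 11 pigment cell markers the sums were 340.0 to 1718 against 117.4 to 329.1, with 0 passing. With the replicate block 4 passed, beside 102 of all 6430 tested genes, and with median scaling 4, beside 658 of the 6430. The upper wild-type sum was that of wild type replicate 2, and the other wild-type arrays stood at 379.7 and 340.0. Dct had the smallest p (log2 difference of -1.25), then Tyrp1, which was above background on 0 homozygous arrays. All 8 were above background on every wild-type array, and 3, 6 and 3 of them on homozygous arrays 1 to 3. Of the 8, 1 lay above 0. The 5 tested of 12 macrophage markers summed to 115.4 to 205.2 against 54.6 to 80.5, with Laptm5 passing and above background on 0 homozygous arrays. All 5 were above background on every wild-type array, and 1, 2 and 2 of them on homozygous arrays 1 to 3. Of these 5, 1 lay above 0. Where genes met the detection filter mainly through the wild-type arrays, neither the sums nor the genes that passed test a difference between genotypes. With detection at p under 0.01 required on all arrays, 0 inner retina and 0 macrophage markers passed, and with no filter 5 and 1. Leaving out 1 array at a time, 2 to 4 inner retina and 0 to 1 macrophage markers passed. Photoreceptor markers had 0 passing of 16, with the smallest p for Rcvrn, above background on 0 homozygous arrays, and then Guca1a (log2 difference of -1.14). The part of these cells in the Dnase2b values was not tested.

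Dnase2b depends on HSF4 in the mouse lens, so the bases before an annotated start of the gene are shown for 2 motifs of 8 bases. The motifs, GAANNTTC and TTCNNGAA, pair 2 of the GAA units of a heat shock element head to head or tail to tail. Each reads the same on both strands. The stretch below is the 250 bases before that start in RefSeq, build GRCm38.p6, on the minus strand at chr3:146615599-146615848, with the motif in capitals. It lies inside the annotated gene, which spans chr3:146569733-146617060.
Dnase2b: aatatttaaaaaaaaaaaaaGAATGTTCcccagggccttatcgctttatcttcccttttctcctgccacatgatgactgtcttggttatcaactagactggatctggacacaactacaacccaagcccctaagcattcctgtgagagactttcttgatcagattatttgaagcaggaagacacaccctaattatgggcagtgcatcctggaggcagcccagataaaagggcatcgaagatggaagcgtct
The stretch held 1 match, GAATGTTC, whose first base is 230 bases before that annotated start. Over all 32851 promoters of the table, 12.8% held either motif in the same 250 bases. Promoters of 8 member genes were matched by symbol, with 10 starts in all, and 2 of the 10 held a match, 1 of Dnase2b and 1 of Tdrd7. Hsf4 was not among the 8. A match is a run of letters and no evidence of binding.

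Tdrd7, the RNA granule protein, had normalized log2 signals of 12.72, 12.95 and 12.93 in the wild type. The homozygous values were 12.75, 12.83 and 12.85. They lay between the lowest and the highest wild-type array. The log2 difference was -0.06 with a 95% interval of -0.26 to 0.15 (limma adjusted p = 0.892), the narrowest interval of the 6 genes. A log2 difference of 0.51 would have been needed to pass at this probe's SE.

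The Tdrd7 start with a match is shown for comparison with Dnase2b, as the 250 bases before it on the plus strand at chr4:45965085-45965334 of GRCm38.p6, motif in capitals.
Tdrd7: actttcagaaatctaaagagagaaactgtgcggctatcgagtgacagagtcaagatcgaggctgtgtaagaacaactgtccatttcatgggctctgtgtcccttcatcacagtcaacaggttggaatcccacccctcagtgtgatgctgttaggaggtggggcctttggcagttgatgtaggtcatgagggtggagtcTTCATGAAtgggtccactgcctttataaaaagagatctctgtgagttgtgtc
The match, TTCATGAA, lies 52 bases before this annotated start, and the other 2 annotated Tdrd7 starts held none. The stretch also lies inside the annotated gene, which spans chr4:45965027-46034766.

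**Figure D3:**
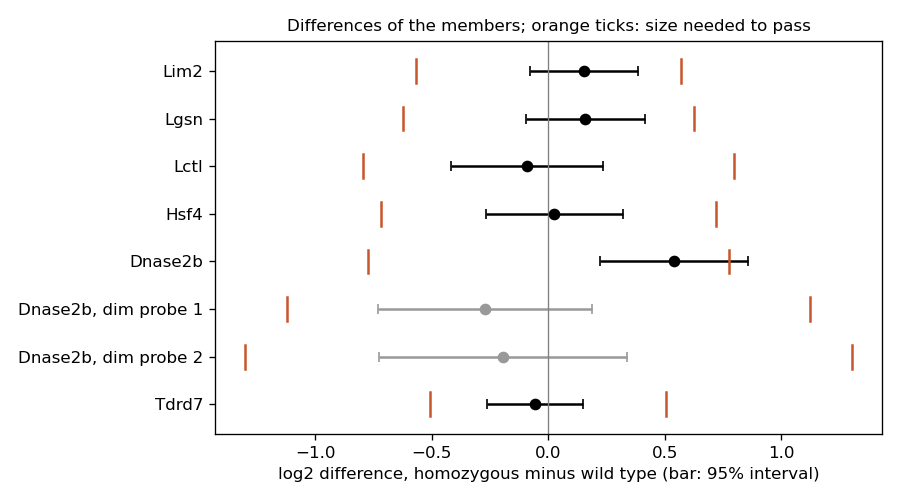
Log2 difference, homozygous minus wild type, of each of the 8 probes with its 95% interval (limma, n = 3 per group); grey points are the dim Dnase2b probes, and orange ticks mark the difference each probe would have needed to pass. The brightest Dnase2b probe, at 0.54, is the 1 probe whose interval leaves out 0, and it lies inside its tick of 0.78.

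The deposited signals, before any correction, differed from the normalized values for several members. Lctl stood at 1614, 2644 and 1995 in the wild type against 1354, 1422 and 1464 in the homozygotes. Hsf4 stood at 471.6, 495.7 and 539.9 against 395.9, 380.8 and 366.8. Tdrd7 stood at 7874, 9556 and 8271 against 5760, 6489 and 6834. In these 3 of the 6 genes all homozygous signals were below all wild-type signals, as they were in 53.7% of all tested genes. The median log2 difference over all tested genes was -0.22 on that scale, and quantile normalization removes a shift shared by most probes, whatever its source. Lim2 and Lgsn overlapped on that scale, with signals of 10695, 12746 and 11779 against 9131, 11756 and 10392 for Lim2, and of 7242, 6230 and 5254 against 4603, 5392 and 5825 for Lgsn.

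Under median scaling, which shifts each array to a common median instead of equalising distributions, the signs of Lim2, Lgsn and Hsf4 reversed. The median over all tested genes was then -0.32 and that of the 6 genes -0.30, and Dnase2b, at 0.10, was the 1 member above 0. Relative to all genes Dnase2b was 0.41 higher and Lctl 0.19 lower in the homozygotes, and 0 of the 6 passed. Lim2 and Lgsn stayed above that median, at 0.18 and 0.12, and Hsf4 stood at -0.10 from it. In that setting 5 genes of the whole array rose and 653 fell, against 7 and 21 with quantile normalization.

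**Figure D4:**
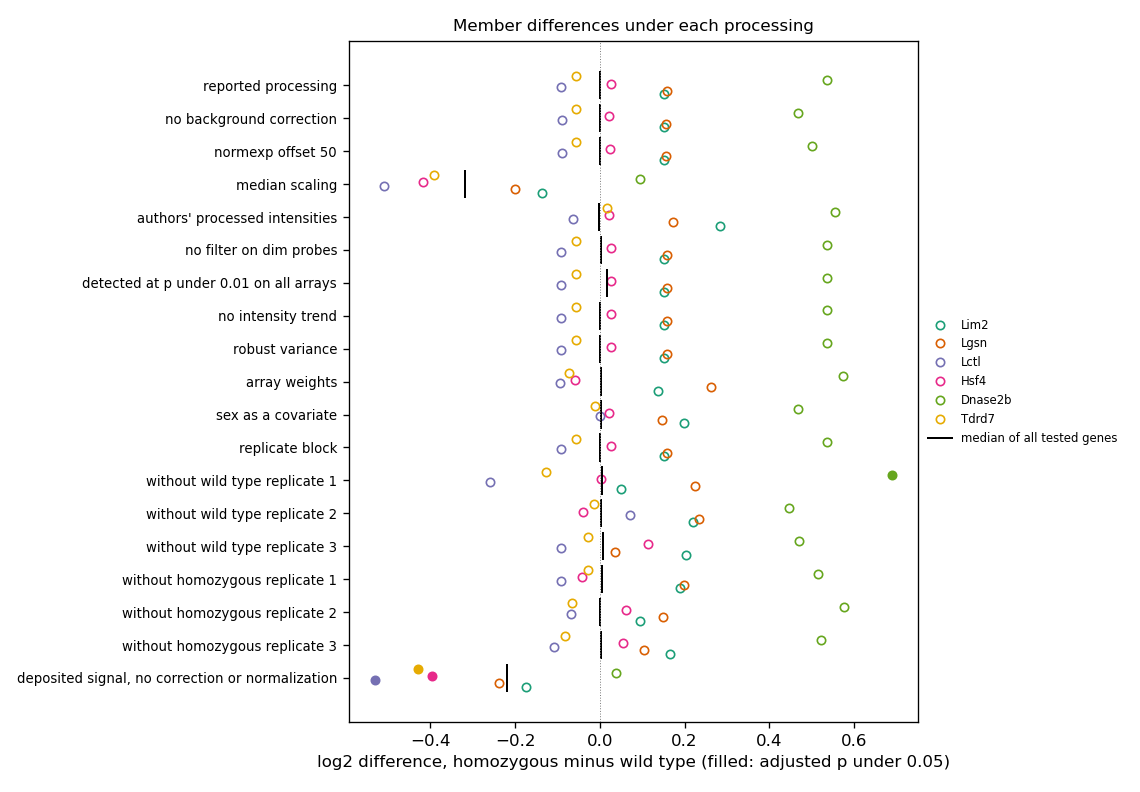
Log2 difference, homozygous minus wild type, of the 6 genes (colours) under the reported processing and the 18 alternatives, with a black line at the median of all tested genes in each; filled points passed at an adjusted p under 0.05. Dnase2b lies to the right of the other 5 genes in every setting, and the lines of median scaling and of the uncorrected signal sit at -0.32 and -0.22.

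In the lists closest to these members in function, 0 genes passed with the reported processing. Under median scaling, 2 of the fibre list, 2 of the RNA granule list and 2 of the relatives passed, beside 658 of all 6430 tested genes. That setting put the median over all tested genes at -0.32. With the uncorrected signal the counts were 5, 4 and 2, beside 1925 of the 6430. Of 21 other names of fibre differentiation, 14 genes were tested and 0 passed, 10 above 0 and 4 below, with a median log2 difference of 0.03. The 2 of smallest p were Epha2, a receptor kinase of fibre cells, at -0.53 and Ank2, an ankyrin of their membrane skeleton, at 0.44 (limma adjusted p = 0.471 and 0.567). Of 19 partners of RNA granules, 13 were tested and 0 passed, with a median of -0.03. Edc4, a scaffold of the decapping machinery, stood at -0.52 and Pabpc1, a poly(A)-binding protein, at -0.20 (limma adjusted p = 0.433 and 0.695). Caprin1, the relative of the unmeasured Caprin2, had a log2 difference of 0.01 and lies in this list and the next. Of 27 relatives of the members by protein family, 9 were tested and 0 passed, with a median of 0.02. Emp2, of the protein family of Lim2, stood at -0.21 and Birc5, of the family of Birc7, at 0.26 (limma adjusted p = 0.640 and 0.674). At an unadjusted p under 0.05 these lists held 1, 1 and 0 genes, against 9.14% of all tested genes.

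Of 8 genes reported to depend on HSF4 in the mouse lens, 7 were tested and 0 passed. Of the 7, which include Dnase2b, 6 had a log2 difference above 0, against 3213 of all 6430 tested genes, with a median of 0.32. The list holds no direction of dependence for its genes, so this count of signs does not measure HSF4 activity. At an unadjusted p under 0.05 there were 4 of the 7, against 9.14% of all tested genes. With median scaling 1 of the list passed, beside 658 of all 6430 tested genes, and with the uncorrected signal 2, beside 1925 of the 6430. Of those 658 and 1925 genes, 653 and 1920 were lower in the homozygotes. Without wild type replicate 1 the 1 that passed was Dnase2b, beside 72 of 6101 tested genes. After Dnase2b the smallest p belonged to Crygf, a gamma crystallin, at 0.53 (limma adjusted p = 0.404). Gamma crystallins are near-identical, so its probe may read more than 1 of them. Bfsp1 and Bfsp2, the beaded filament proteins, stood at 0.05 and -0.10. Hsf4 itself stood at 0.03.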

How the data were processed

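Lens RNA of 6 mice was measured on Illumina BeadChips, 1 array per mouse. The deposited signal is a linear intensity per probe, neither background-subtracted nor normalized judging by its values, with detection p-values beside it, per the file headers. The authors' processed intensity is a second deposited table of the same arrays, background-subtracted and normalized by a method not given in the sources used here. The submitters' processing notes name GenomeStudio 2011.1.

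Signals were corrected with limma 3.58.1 in R 4.3.3 (normexp, background level estimated through the detection p-values, offset 16), quantile normalized and taken to log2. The 8618 probes with a detection p under 0.05 on at least 3 arrays were tested, which represent 6430 named genes, each by its brightest probe. Of 25697 probes, 23978 have 1 symbol in the platform annotation, 0 have several and 1719 have none. Genotypes were compared with limma (lmFit, then eBayes with a trend over intensity), two-sided, with Benjamini-Hochberg adjustment over all tested probes and a threshold of 0.05. Summed marker signals are normalized values less the offset. The script was tested on simulated data. The number of arrays limits the precision.

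The members and lists were chosen with earlier results of these data known. All members are named, and in each list up to 4 genes that pass or else the 2 of smallest p. Lens identity genes, Fgf9, Xist and Eif2s3y are named as checks of the labels, and Caprin1 was chosen after its values were seen. Alternatives were other background corrections, median scaling, the authors' table, other filters and variance models, array weights, sex, a replicate block and leaving out each array. The same replicate numbers occur in both genotypes, but nothing in the labels pairs these mice. Correlations of same-numbered deviations from the group means were 0.20, 0.19 and -0.03, and those of differently numbered pairs ran from -0.21 to 0.04. With no pairing in the labels, the main fit has no block, and results with a block are given below.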

Additional observations from a re-analysis of the deposited data

How the results depend on the processing

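Over 18 alternatives, 0 member genes passed in 16. The exceptions were the fit without wild type replicate 1, where 1 passed (Dnase2b), and the uncorrected signal with no normalization, chosen after seeing the data, where 3 passed as lower (Lctl, Hsf4 and Tdrd7). Leaving out 1 array at a time gave 0 to 1 member genes and 9 to 72 genes in all. The count of all genes, 28, became 17 on uncorrected but normalized signals, 18 at an offset of 50, 658 with median scaling, 15 with the authors' processed intensities, 7 with the stricter detection filter, 16 with no intensity trend, 60 with array weights, 17 with sex as a covariate and 1925 with the uncorrected signal. With the replicate block it was 102, and Dnase2b had an adjusted p of 0.083. The block also took lens epithelium markers from 1 to 3 passing, photoreceptor markers from 0 to 1 and pigment cell markers from 0 to 4. No member passed with or without the block, and it changed no member's call. Replicates 1 and 2 of the wild type correlated best with their own number and replicate 3 did not.

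Dnase2b's brightest probe stayed above 0 in all 18 alternatives, from 0.04 with the uncorrected signal to 0.69. Reversals of sign were all of differences that did not pass in the reported processing. With median scaling Lim2 stood at -0.14, Lgsn at -0.20 and Hsf4 at -0.42. With the uncorrected signal these were -0.18, -0.24 and -0.40. Tdrd7 was 0.017 with the authors' intensities, and Lctl was 0.0012 with sex as a covariate. With array weights Hsf4 was -0.058 and the second dim Dnase2b probe 0.065. Leaving out arrays, Lctl ranged from -0.26 to 0.071 and Hsf4 from -0.042 to 0.11. The cause of these reversals was not tested. Median scaling and the uncorrected signal move the median of all genes to -0.32 and -0.22. Relative to that median, in the same order, Hsf4 stood at -0.10 and -0.18, Lgsn at 0.12 and -0.02 and Lim2 at 0.18 and 0.04. Signals near background limit both dim Dnase2b probes.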
